A study of Neogale vison with 6 samples.

Results

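The genes described here are 9 small GTPases of the Ras, R-Ras, Rap and Ral groups, namely HRAS, NRAS, RRAS, RRAS2, RAP1A, RAP1B, RAP2B, RALA and RALB. They were picked by gene symbol, with earlier results of these data known. Among the 24526 genes of the count table, 7 of the 9 had a row with their symbol. No row was named NRAS or RALA, and these 2 genes are not analysed here as members. A row named RASN, which may be NRAS, is described below. RNA was sequenced from Mv1Lu cells, an epithelial line derived from mink lung, in 3 libraries of untreated cells (control) and 3 libraries of cells subjected to cholesterol depletion (CD). For CD, the cells spent 16 h in medium that held 10% lipoprotein-deficient serum (LPDS), lovastatin at 50 μM and mevalonate at 50 μM, whereas control cells stayed in growth medium. Lovastatin inhibits HMG-CoA reductase, the enzyme that makes mevalonate, and the added mevalonate was meant to keep protein prenylation going. The statin, the mevalonate and the change of serum were applied together, so their effects cannot be told apart. All libraries came from 1 cell line. Nothing in the labels says that the 3 libraries of a group came from separate cultures, and p-values then measure only the spread between these libraries, which may be technical.

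The libraries held 13473820 to 18633764 reads assigned to genes. The spread between replicates was wider under CD, with a biological coefficient of variation of 0.223 against 0.0856 in control. As a check of the cell type, 5 of 7 epithelial markers were found by symbol, and KRT8 and KRT18 were not. Their summed level ran from 892 to 1019 CPM (read counts scaled to a common library size) in control and from 393 to 546 CPM under CD, and nearly all of it was KRT19. EPCAM and CDH1, which define most epithelia, stayed near 0 in every library, while OCLN lay between 5.40 and 7.85 CPM. The epithelial label rests here mainly on the keratin KRT19. KRT19 was lower in every CD library (log2 fold change -1.03, edgeR adjusted p = 2.74e-04), CLDN4 was higher (3.55, edgeR adjusted p = 9.61e-06) and OCLN was not called (0.06, edgeR adjusted p = 0.83), so these markers did not move together. Markers of fibroblasts, leukocytes and endothelium, 9 of 9 found, summed to between 226 and 273 CPM in control and between 176 and 215 CPM under CD, most of it COL1A2. Of these 9, COL1A1 and COL1A2 fell, CD68 (log2 fold change 1.85, edgeR adjusted p = 2.49e-05) and VWF (3.38, edgeR adjusted p = 8.82e-04, with at most 27 reads in a library) rose, and PTPRC and CDH5 were at 0 in all libraries but CD replicate 3, where each had 1 read. The part of these markers in the results below was not tested. In bulk RNA, a change in the share of cells that express a gene and a change in the RNA per cell cannot be told apart.

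Ras-type GTPases are switches. They are turned on when a guanine nucleotide exchange factor (GEF) loads them with GTP, and off when a GTPase-activating protein (GAP) speeds up hydrolysis of the bound GTP. To act, most of them must sit on a membrane, and for this a farnesyl or geranylgeranyl chain, both made from mevalonate, is attached to a CAAX box at the C terminus. Ras proteins feed the RAF and phosphoinositide 3-kinase pathways, Rap proteins act on integrins and cell junctions, and Ral proteins act on the exocyst, which tethers secretory vesicles to the plasma membrane. Whether the proteins or their membrane binding changed was not measured in these libraries.

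The comparison of CD with control asked how prolonged cholesterol depletion alters mRNA levels. Of the 7 GTPases measured, 5 rose under CD. The genes of both Rap1 proteins (RAP1A and RAP1B), RRAS and RALB rose by 1.90-fold to 2.29-fold, and HRAS rose by 1.48-fold. RAP2B fell to 0.594 of its control level, and RRAS2 did not pass the test. All 7 were expressed well enough to be tested. Levels were CPM after TMM scaling, and differences were tested with edgeR's quasi-likelihood test, with Benjamini-Hochberg adjustment over the 12148 genes tested and a call at 0.05.

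CD moved a large part of the transcriptome, and the counts of GTPases are to be read against that. Of all tested genes, 24.8% were called higher, 22.9% lower and 47.7% in either direction. Among the 7 GTPases, 71.4% were called higher and 14.3% lower. Their median log2 fold change was 0.92, beside 0.06 over all tested genes. The control and CD libraries did not overlap for 6 of the 7, compared with 58.0% of all tested genes. The 5 higher calls became 4 when control replicate 2 or control replicate 3 was left out, and the gene that lost its call was HRAS each time.

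**Figure D1:**
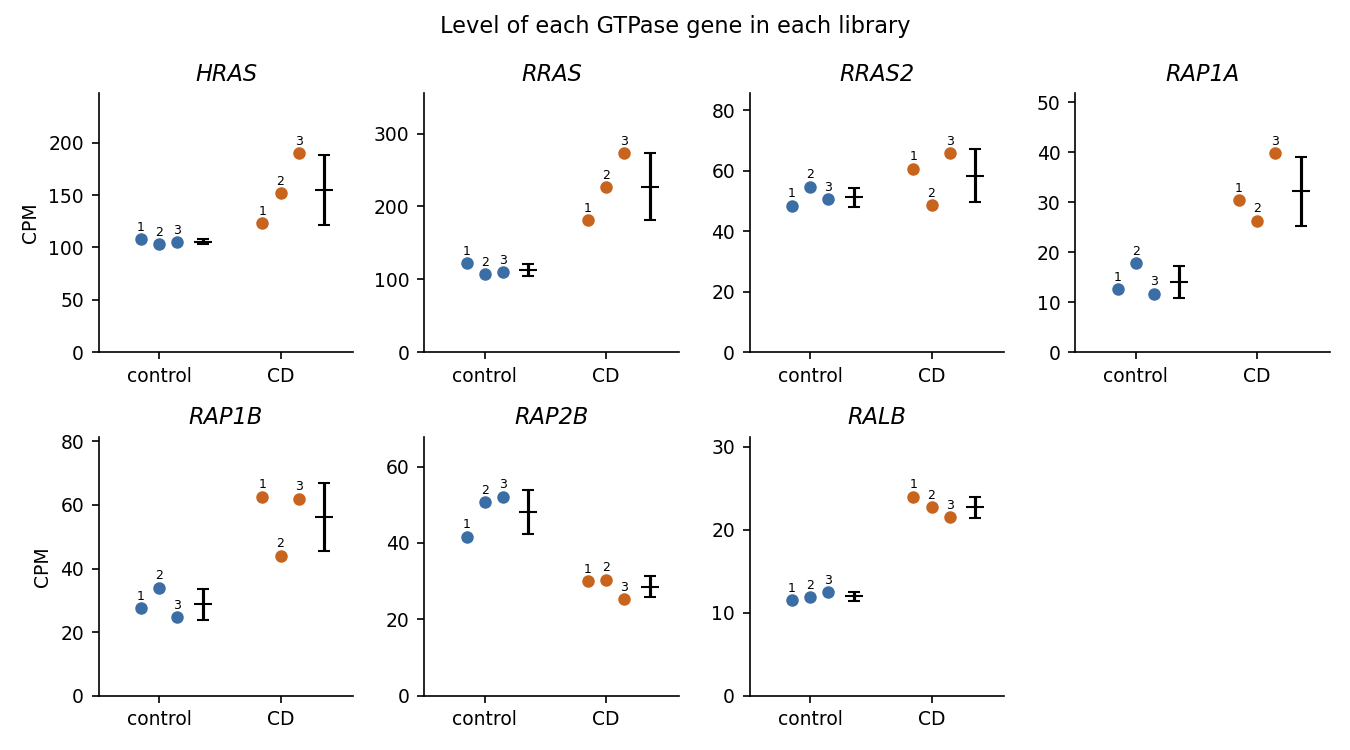
CPM of each of the 7 GTPase genes in the 3 control (blue) and 3 CD (orange) libraries, with replicate numbers above the points and bars for the mean ± SD (n = 3 per group). The groups overlap only for RRAS2. RAP2B is lower under CD, and the CD points of HRAS and RRAS span wider ranges than their control points.

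HRAS encodes a Ras protein that is farnesylated and then palmitoylated, and it is one of the classical Ras oncogenes. Its level was 108, 103 and 105 CPM in control replicates 1, 2 and 3, and 123, 152 and 190 CPM in CD replicates 1, 2 and 3. The control libraries were close together, the CD libraries were spread out, and the groups did not overlap. The mean was 105 ± 2.47 CPM (SD, n = 3) in control and 155 ± 33.6 CPM (SD, n = 3) under CD. The log2 fold change was 0.56 (SE 0.15, 95% interval 0.22 to 0.90, edgeR adjusted p = 0.0124). This was the least stable of the 6 called GTPases. Without CD replicate 3, the library with the highest value, it was 0.35 (adjusted p = 0.00514). The call was lost without control replicate 2 (adjusted p = 0.0530) and without control replicate 3 (adjusted p = 0.0514), although the fold change hardly moved.

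RRAS encodes R-Ras, a relative of Ras that is best known for its action on integrins and cell adhesion. It stood at 122, 107 and 110 CPM in the control libraries and at 181, 226 and 273 CPM in the CD libraries. Every CD library was above every control library, and CD replicate 3 was again the highest. From 113 ± 7.94 to 227 ± 46.3 CPM (SD, n = 3 each), the log2 fold change was 1.0 (SE 0.15, 95% interval 0.66 to 1.35, edgeR adjusted p = 4.68e-04), that is 2.01-fold. It ranged from 0.81 without CD replicate 3 to 1.16 without CD replicate 1 and remained called.

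RRAS2 encodes TC21, the closest relative of R-Ras in this group. Control libraries held 48.5, 54.7 and 50.7 CPM, and CD libraries held 60.7, 48.7 and 65.8 CPM. CD replicate 2 lay within the control range, while the other two CD libraries lay above it. The log2 fold change of 0.19 (SE 0.14, edgeR adjusted p = 0.296) had a 95% interval from -0.12 to 0.50, which holds no change as well as a rise of up to 0.50. Under none of the 14 alternative settings was RRAS2 called, and its adjusted p ran from 0.165 to 0.719.

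RRAS and RRAS2 were compared directly by their ratio within each library, which does not depend on the scaling between libraries. The log2 ratio of RRAS to RRAS2 counts was 1.33, 0.96 and 1.12 in control and 1.58, 2.22 and 2.06 under CD. All 3 CD ratios were above all 3 control ratios. The mean went from 1.14 ± 0.18 to 1.95 ± 0.33 (SD, n = 3 each), a difference of 0.81 with an exact two-sided permutation p of 0.1, which is the smallest that 3 against 3 libraries allow. Adjusted over the 2 pairs compared, p was 0.2, and in this design neither pair could pass a threshold of 0.05. Only the change of the ratio is meaningful, because counts are not scaled for the length of each mRNA.

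RAP1A and RAP1B encode the near-identical Rap1 proteins, which are geranylgeranylated and control integrin activation and cadherin junctions. RAP1A held 12.6, 17.8 and 11.7 CPM in control and 30.4, 26.3 and 39.8 CPM under CD, with no overlap. RAP1B held 27.5, 34.0 and 24.7 CPM in control and 62.6, 44.0 and 62.0 CPM under CD, again with no overlap. In both genes control replicate 2 was the highest of the controls and CD replicate 2 the lowest of the CD libraries. RAP1A rose from 14.0 ± 3.29 to 32.1 ± 6.92 CPM (SD, n = 3 each), and its log2 fold change of 1.20 (SE 0.21, 95% interval 0.72 to 1.67, edgeR adjusted p = 0.00117) was the highest of the 7 GTPases. Of all tested genes, 7.79% had a higher one. RAP1B rose from 28.7 ± 4.74 to 56.2 ± 10.6 CPM (SD, n = 3 each), and the log2 fold change was 0.97 (SE 0.18, 95% interval 0.57 to 1.36, edgeR adjusted p = 0.00144). Both stayed called in the 14 alternative settings.

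The log2 ratio of RAP1A to RAP1B counts was -1.13, -0.93 and -1.08 in control and -1.04, -0.74 and -0.64 under CD. CD replicate 1 lay within the control range. The mean went from -1.05 ± 0.10 to -0.81 ± 0.21 (SD, n = 3 each), a difference of 0.24 with an exact two-sided permutation p of 0.2 (adjusted p = 0.2 over the 2 pairs). The groups overlapped, and the design could not have passed the threshold after adjustment. Left out singly, the libraries gave differences from 0.15 without CD replicate 3 to 0.35 without CD replicate 1. Because these genes are alike in sequence and the handling of shared reads is not stated, how reads were split between them is uncertain. The other planned pairs, HRAS with NRAS and RALA with RALB, each lack a gene and could not be computed.

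**Figure D2:**
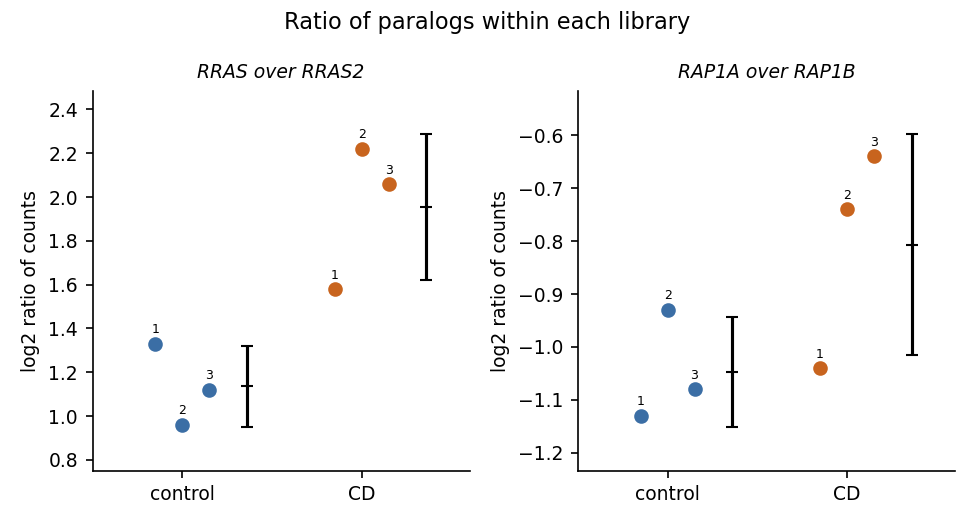
Log2 ratio of the counts of 2 paralogs in each of the 3 control (blue) and 3 CD (orange) libraries, with replicate numbers, and bars for the mean ± SD (n = 3). The RRAS over RRAS2 ratios do not overlap between groups, with means of 1.14 and 1.95, while the RAP1A over RAP1B ratios do, with means of -1.05 and -0.81.

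RAP2B encodes a Rap2 protein, a palmitoylated cousin of Rap1 that binds kinases of the MAP4K4, TNIK and MINK1 group. It was the only one of the 7 GTPases that fell. Control libraries held 41.6, 50.7 and 52.1 CPM and CD libraries 30.0, 30.4 and 25.3 CPM, and every CD library was below every control library. The mean went from 48.1 ± 5.74 to 28.6 ± 2.85 CPM (SD, n = 3 each). The log2 fold change was -0.75 (SE 0.14, 95% interval -1.07 to -0.43, edgeR adjusted p = 0.00178), and it stayed between -0.85 and -0.69 when each library was left out in turn. Of all tested genes, 85.7% had a higher log2 fold change.

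The sister genes of RAP2B went the opposite way. RAP2A held 3.73, 3.40 and 3.53 CPM in control and 10.9, 9.63 and 6.92 CPM under CD, a log2 fold change of 1.37 (SE 0.22, edgeR adjusted p = 6.24e-04). RAP2C held 8.74, 6.94 and 7.05 CPM in control and 19.4, 14.9 and 13.6 CPM under CD, a log2 fold change of 1.08 (SE 0.20, edgeR adjusted p = 0.00139). Both genes kept their calls in all 14 alternative settings, and neither overlapped between groups. The ratio of RAP2B to RAP2A reads was 11.2, 14.9 and 14.8 in control and 2.76, 3.16 and 3.66 under CD. The ratio of RAP2B to RAP2C reads was 4.75, 7.31 and 7.39 in control and 1.55, 2.04 and 1.86 under CD. Both sets of ratios were lower in every CD library than in any control library. These ratios were chosen after the values were seen and were not tested.

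RALB encodes 1 of the 2 Ral proteins, which are geranylgeranylated and bind the exocyst. Its level was 11.5, 11.9 and 12.5 CPM in control and 24.0, 22.7 and 21.5 CPM under CD. It had the tightest CD libraries of the 7 GTPases, with a coefficient of variation of 5.64%, whereas HRAS had 21.7% and RAP1A 21.6%. The mean rose from 12.0 ± 0.523 to 22.7 ± 1.28 CPM (SD, n = 3 each), or 1.90-fold. The log2 fold change was 0.92 (SE 0.15, 95% interval 0.60 to 1.25, edgeR adjusted p = 5.58e-04). Leaving out any library kept it between 0.89 and 0.96.

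**Figure D3:**
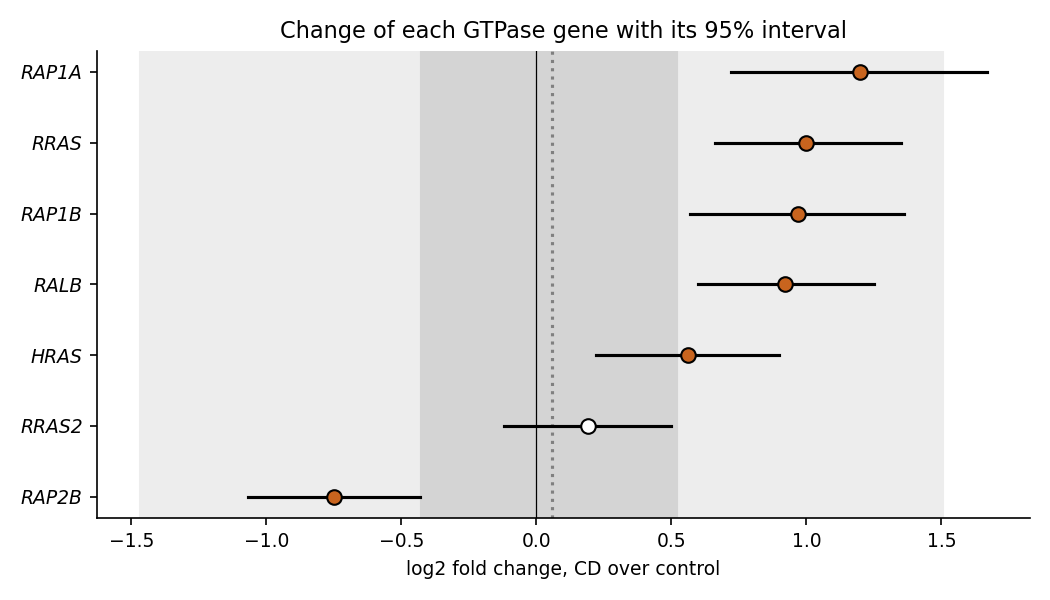
Log2 fold change (CD over control) of each GTPase gene with its 95% interval from the edgeR fit; filled points are called at 0.05 and the open point, RRAS2, is not. The dark band runs from percentile 25 to 75 of all tested genes (-0.43 to 0.52), the light band from percentile 5 to 95 (-1.47 to 1.51), and the dotted line is their median. The 5 genes called higher lie above the dark band, RAP2B lies below it, and all 7 points are inside the light band.

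Reads of a neighbouring gene can be counted with a gene where both overlap. In the RefSeq annotation of mink (assembly ASM_NN_V1), none of the 7 GTPase genes overlapped another gene. The reads were counted on another mink assembly and its annotation, in which overlap was not checked. Of their 14 neighbours, 8 were tested and 4 were called, a share close to the 47.7% of all tested genes. Those 4 all fell, beside 22.9% of all tested genes called lower, a difference that was not tested. The genes on either side of RAP1B, NUP107 and MDM1, had log2 fold changes of -1.36 (edgeR adjusted p = 1.23e-04) and -1.46 (edgeR adjusted p = 2.64e-04) while RAP1B rose. SCAF1, beside RRAS, had a log2 fold change of -0.38 (edgeR adjusted p = 0.0199), and TMEM185B, beside RALB, had -0.74 (edgeR adjusted p = 0.00377).

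Other members of the Ras family were set beside these genes, in a list of 26 that was written after the count table had been seen. Of the 23 found, 13 were tested, of which 7 rose (53.8%, beside 24.8% of all tested genes), 2 fell (15.4%, beside 22.9%) and 4 did not pass the test, with a median log2 fold change of 0.47. A row named RASN has a name in the style of the UniProt protein database and no description. Whether this row is NRAS cannot be read from the table. It held 6.09, 6.22 and 4.52 CPM in control and 14.1, 8.71 and 6.48 CPM under CD, with a log2 fold change of 0.81 (SE 0.29, edgeR adjusted p = 0.0401). That call was fragile. It was made in 7 of the 14 alternative settings and lost whenever a control library or CD replicate 1 or 2 was left out, with 0.46 (adjusted p = 0.122) without CD replicate 1. RASM, described as the muscle RAS homolog, was not called (log2 fold change 0.21, SE 0.24, edgeR adjusted p = 0.504).

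RRAD, a Ras relative that lacks a lipid anchor and restrains calcium channels, had the highest log2 fold change of that list, 5.33 (SE 0.23, edgeR adjusted p = 2.46e-07). Its control libraries held 1.58, 1.73 and 1.54 CPM and its CD libraries 48.4, 71.5 and 75.2 CPM. Next came DIRAS1, at 13.2, 9.47 and 9.97 CPM in control and 38.5, 38.8 and 31.7 CPM under CD (log2 fold change 1.74, SE 0.17, edgeR adjusted p = 3.33e-05). The genes that fell were RASD2 (log2 fold change -1.08, SE 0.24, edgeR adjusted p = 0.00428) and RASL11A (log2 fold change -0.77, SE 0.22, edgeR adjusted p = 0.0155). RASL11A lost its call without control replicate 1 (adjusted p = 0.0551) and without control replicate 3 (adjusted p = 0.0816), which left 1 gene called lower.

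The Rab family, which is also prenylated, gives a scale for these changes. Among Rab genes, which direct vesicle traffic, 23 of 41 tested (56.1%) rose and 2 (4.88%) fell, beside 24.8% and 22.9% of all tested genes, with a median of 0.55 beside 0.06. The highest and lowest called Rab genes were RAB44 at 2.25 (SE 0.32, edgeR adjusted p = 3.25e-04) and RAB34 at -0.43 (SE 0.13, edgeR adjusted p = 0.0225). RAB44 was barely detected, with 4, 3 and 5 reads in the control libraries and 21, 20 and 18 in the CD libraries. Leaving out any 1 control library left 0 Rab genes called lower, while 1 was called lower without CD replicate 2 and 4 without CD replicate 3. The families were not tested against each other.

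**Figure D4:**
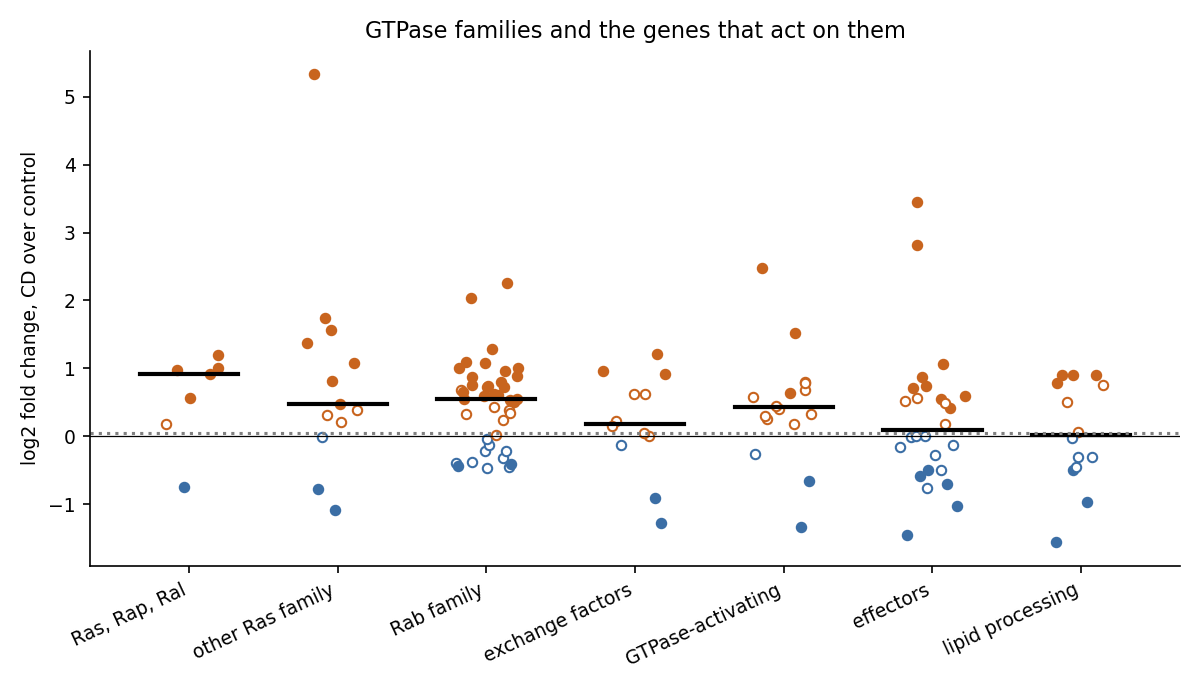
Log2 fold change (CD over control) of each tested gene in the GTPase families and in the groups that act on Ras, Rap and Ral; each point is a gene, filled where called, orange above and blue below 0, with a bar at each group's median and a dotted line at the median of all tested genes. Medians were 0.92 for the 7 GTPases, 0.47 for other Ras family genes and 0.55 for Rab. They were 0.19 for exchange factors, 0.43 for GTPase-activating proteins, 0.10 for effectors and 0.02 for lipid processing. Each of these medians moved when single libraries were left out. That of the 7 GTPases ran from 0.81 to 0.92, and that of other Ras family genes from 0.40 to 0.63.

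Exchange factors switch these GTPases on. Of 20 listed, 17 were found and 12 tested; 3 (25%, near the 24.8% of all tested genes) rose, 2 (16.7%, beside 22.9%) fell and 7 did not pass, with a median log2 fold change of 0.19. Among factors for Ras, SOS1, which couples growth factor receptors to Ras, went from 17.5, 14.5 and 12.1 CPM to 36.1, 29.9 and 19.8 CPM (log2 fold change 0.96, SE 0.23, edgeR adjusted p = 0.00647). RASGRP1, activated by diacylglycerol, was barely detected, with at most 38 reads in a library (log2 fold change 1.22, SE 0.39, edgeR adjusted p = 0.0257). For Rap, RAPGEF4, the cyclic AMP sensor EPAC2, fell from 12.6, 11.3 and 10.9 CPM to 7.62, 4.97 and 5.83 CPM (log2 fold change -0.91, SE 0.20, edgeR adjusted p = 0.00416), while its relative RAPGEF3 was not called (0.05, edgeR adjusted p = 0.825). For Ral, RGL1 rose (0.92, SE 0.24, edgeR adjusted p = 0.0105) and RALGPS2 fell (-1.28, SE 0.38, edgeR adjusted p = 0.0176).

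The counts of exchange factors moved with single libraries, as did their median log2 fold change, which came to 0.09 without CD replicate 2 and reached 0.40 without CD replicate 3. Those called higher numbered 1 without control replicate 3 and 6 without CD replicate 3, and those called lower numbered 1 without control replicate 2, control replicate 3 or CD replicate 2. RASGRP1 lost its call when control replicates 2 or 3, or CD replicates 1 or 2, were left out (adjusted p from 0.0564 to 0.105) and with DESeq2 on all libraries (adjusted p = 0.0698), and RGL1 without control replicate 3 (adjusted p = 0.0514). RALGPS2 lost its call on leaving out control replicates 2 or 3, or CD replicate 2 (adjusted p from 0.0573 to 0.0604), and its log2 fold change was -1.96 without CD replicate 1.

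GTPase-activating proteins, which switch the GTPases off, had 4 genes higher (25%), 2 lower (12.5%) and 10 not called of 16 tested, beside 24.8% and 22.9% of all tested genes, with a median log2 fold change of 0.43. RASA3, a GAP for Ras and Rap, rose in all CD libraries, from 33.2, 30.7 and 36.7 CPM to 105, 98.2 and 85.7 CPM (log2 fold change 1.52, SE 0.13, edgeR adjusted p = 1.22e-05). RASA1 rose by 0.64 on the log2 scale (SE 0.18, edgeR adjusted p = 0.0160) and DAB2IP fell by 0.66 (SE 0.23, edgeR adjusted p = 0.0395). Of the GAPs for Rap, SIPA1 fell from 84.5, 71.6 and 74.4 CPM to 25.6, 32.8 and 32.8 CPM (log2 fold change -1.34, SE 0.14, edgeR adjusted p = 4.77e-05), while its relative SIPA1L2 rose (0.80, SE 0.21, edgeR adjusted p = 0.00937). Of the 3 genes of the Ral GAP complex, RALGAPA2, a catalytic subunit, went from 21.4, 21.5 and 19.4 CPM to 177, 126 and 44.1 CPM (log2 fold change 2.48, SE 0.40, edgeR adjusted p = 6.61e-04), and the others did not pass the test. Its CD libraries had a coefficient of variation of 58.0%, above that of any of the 7 GTPases.

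The median of the GAPs ran from 0.25 without CD replicate 1 up to 0.65 without CD replicate 3. Without CD replicate 3, 11 GAPs were called higher instead of 4. Without CD replicate 1 or any of the control libraries, 1 was called lower instead of 2, since DAB2IP then lost its call (adjusted p from 0.0668 to 0.142). RASA1 lost its call without control replicate 1 (adjusted p = 0.0640) and without control replicate 3 (adjusted p = 0.0688).

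**Figure D5:**
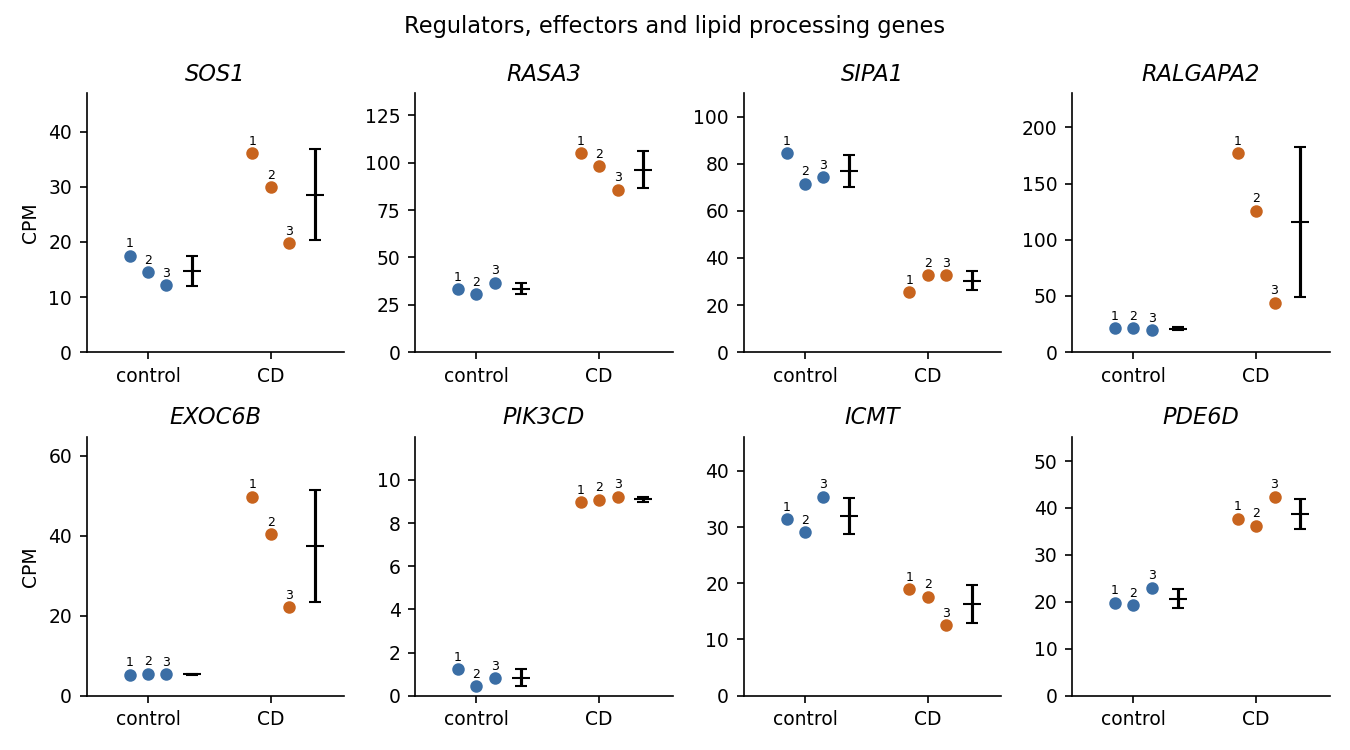
CPM of 8 genes that act on or below the GTPases in the 3 control (blue) and 3 CD (orange) libraries, with replicate numbers and bars for the mean ± SD (n = 3). SIPA1 and ICMT are lower under CD and the other 6 higher. CD replicate 3 is the lowest CD library for SOS1, RASA3, RALGAPA2, EXOC6B and ICMT.

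Effectors, which carry the signal on, had 9 genes higher (34.6%), 5 lower (19.2%) and 12 not called of 26 tested, beside 24.8% and 22.9% of all tested genes, with a median log2 fold change of 0.10. Of the Ras effectors, PIK3CD, a catalytic subunit of phosphoinositide 3-kinase, went from 1.22, 0.434 and 0.826 CPM to 8.97, 9.08 and 9.22 CPM (log2 fold change 3.45, SE 0.29, edgeR adjusted p = 1.12e-05). SHOC2, a scaffold that helps activate RAF kinases, rose (1.06, SE 0.30, edgeR adjusted p = 0.0160). RIN1, which links Ras to Rab5 and ABL kinases, fell from 53.4, 47.1 and 48.5 CPM to 18.7, 23.1 and 12.5 CPM (log2 fold change -1.45, SE 0.20, edgeR adjusted p = 2.82e-04), as did the Rac exchange factor TIAM1 (-0.70, SE 0.23, edgeR adjusted p = 0.0281) and the kinase ARAF (-0.58, SE 0.11, edgeR adjusted p = 0.00177).

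Of the Rap effectors, MAP4K4, a kinase of the Rap2-binding group, rose from 147, 155 and 139 CPM to 329, 261 and 223 CPM (log2 fold change 0.88, SE 0.15, edgeR adjusted p = 8.07e-04), as did RAP2A and RAP2C but not RAP2B. MINK1 of the same kinase group was not called (-0.13, edgeR adjusted p = 0.522), and TNIK had too few reads to be tested. RADIL (-1.02, SE 0.17, edgeR adjusted p = 8.93e-04) and the junction protein afadin, encoded by AFDN (-0.49, SE 0.17, edgeR adjusted p = 0.0330), fell while RAP1A and RAP1B rose. The 9 Ral effectors tested were 8 exocyst genes and FLNA. Of the 9, 4 exocyst genes rose (44.4%, beside 24.8% of all tested genes), and the other 4 and FLNA did not pass the test. EXOC6B went from 5.23, 5.49 and 5.34 CPM to 49.8, 40.5 and 22.2 CPM (log2 fold change 2.81, SE 0.28, edgeR adjusted p = 3.10e-05). EXOC1 (0.71, SE 0.17, edgeR adjusted p = 0.00580), EXOC2 (0.60, SE 0.20, edgeR adjusted p = 0.0288) and EXOC7 (0.42, SE 0.11, edgeR adjusted p = 0.00986) rose less.

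The median of the effectors was 0.02 without CD replicate 1, 0.03 without CD replicate 2, 0.17 without control replicate 2 and 0.23 without CD replicate 3. Effectors called lower numbered 8 without CD replicate 1 and 3 without control replicate 2 or 3. SHOC2 lost its call without control replicate 1 or 3 (adjusted p of 0.0526 and 0.0736) and stood at 0.62 on the log2 scale once CD replicate 1 was removed. TIAM1 lost its call on leaving out control replicates 2 or 3, or CD replicate 2 (adjusted p from 0.0652 to 0.118), and AFDN without any 1 of the control libraries (adjusted p from 0.0664 to 0.123). EXOC7 lost its call on leaving out control replicates 1 or 2, or CD replicate 2 (adjusted p from 0.0517 to 0.0565), and EXOC2 when any library other than CD replicate 3 was left out (adjusted p from 0.0634 to 0.0996).

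Enzymes and carriers that handle the lipid anchor are the last group, with 4 genes higher (28.6%), 3 lower (21.4%) and 7 not called of 14 tested, near the 24.8% and 22.9% of all tested genes, and a median log2 fold change of 0.02. FNTA, the subunit shared by farnesyltransferase and the type I geranylgeranyl transferase, rose from 17.7, 17.9 and 13.7 CPM to 29.4, 24.1 and 31.1 CPM (log2 fold change 0.78, SE 0.17, edgeR adjusted p = 0.00371). FNTB, the subunit particular to farnesyltransferase, fell from 48.1, 46.2 and 54.4 CPM to 33.2, 37.2 and 35.0 CPM (log2 fold change -0.50, SE 0.13, edgeR adjusted p = 0.00866). PGGT1B, of the type I geranylgeranyl transferase, had a log2 fold change of -0.45 and was not called (SE 0.23, edgeR adjusted p = 0.133). ICMT, which methylates the prenylated C terminus, fell from 31.4, 29.1 and 35.4 CPM to 18.9, 17.6 and 12.5 CPM (log2 fold change -0.96, SE 0.18, edgeR adjusted p = 0.00157). PDE6D, a chaperone that carries prenylated Ras proteins through the cytosol, rose from 19.8, 19.3 and 23.0 CPM to 37.7, 36.2 and 42.4 CPM (log2 fold change 0.90, SE 0.14, edgeR adjusted p = 5.30e-04).

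Depalmitoylating enzymes went both ways or were not called. LYPLA2 (-0.02, edgeR adjusted p = 0.894) and ABHD17A (-0.30, edgeR adjusted p = 0.101) did not pass the test. LYPLA1 (0.91, SE 0.20, edgeR adjusted p = 0.00433) and ABHD17B (0.91, SE 0.16, edgeR adjusted p = 0.00120) rose, while ABHD17C fell from 591, 538 and 624 CPM to 190, 195 and 207 CPM (log2 fold change -1.56, SE 0.11, edgeR adjusted p = 3.93e-06). The median of the lipid-handling genes stayed near 0, at -0.01 without control replicate 2 and -0.07 without CD replicate 3. Without CD replicate 3, 5 of them were called lower instead of 3. FNTB was no longer called without control replicate 3 (adjusted p = 0.0540).

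The order of the CD libraries was counted in these groups. Among the 54 tested exchange factors, GAPs and effectors, CD replicate 3 was the lowest CD library for 43 (79.6%) and CD replicate 1 the highest for 38 (70.4%). Over all tested genes, CD replicate 3 was lowest for 41.0% and CD replicate 1 highest for 36.8%. Among the 7 GTPases, CD replicate 3 was lowest for 2 and highest for 4 (57.1%, beside 40.1% of all tested genes), a difference that was not tested. These counts were chosen after the values were seen. CD replicate 3 also had the largest share of reads outside genes of the CD libraries (41.4%, against 31.1% and 31.8%), and the part of that in the order was not tested. In control replicates 1, 2 and 3 that share was 47.2%, 41.4% and 29.3%.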

How the data were processed

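The authors sequenced poly(A) RNA of Mv1Lu cells and, per the labels and the paper, used fastp 0.20.1, STAR 2.7.2a and DESeq2 1.30.1. The counting program and its use of strand are not given in the sources used here. The deposited table holds raw counts per gene. Its 4 rows of read totals, 29.3% to 47.2% of the reads, were left out. The deposited normalized files were not used.

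The counts were tested in R 4.3.3 with edgeR 4.0.16 (filterByExpr with minimum count 10 and minimum total 15, TMM, glmQLFit with robust estimation, glmQLFTest, condition as the only term, all 6 libraries). The steps were tested on simulated data that, unlike these libraries, had the same spread in both groups and few changed genes. SE is the size of the log2 fold change divided by the square root of F (median 0.18), and intervals use its moderated degrees of freedom. PCR reads without molecular identifiers are not independent molecules. No 2 libraries were alike within sampling noise.

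Members and lists were chosen with earlier results of these data known. Named are all members, in each list the called genes with the 2 highest and 2 lowest log2 fold changes, and for Rab the highest and lowest called. RASN, RASM, RAP2A, RAP2C, ARAF, FNTA, FNTB, PGGT1B, PDE6D, LYPLA2, ABHD17A, RAPGEF3, MINK1, TNIK, FLNA, the markers and the neighbours were named after their values were seen. Alternatives used DESeq2 1.42.0, limma 3.58.1, other scalings and filters, a replicate block and each library left out. Some listed genes are not reported here.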

Additional observations from a re-analysis of the deposited data

How the results depend on the processing

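All 6 called GTPases kept their direction under the 14 alternatives, and only HRAS lost a call, as given above. At an adjusted p of 0.01, 4 GTPases were higher and 1 lower, and of all 12148 tested genes 2006 were higher and 2036 lower. When single libraries were left out, exchange factors ranged from 1 to 6 higher and from 1 to 2 lower. GAPs ranged from 3 to 11 higher and from 1 to 2 lower. Effectors ranged from 6 to 12 higher and from 3 to 8 lower. Lipid processing ranged from 4 to 6 higher and from 2 to 5 lower. Rab genes ranged from 16 to 25 higher and from 0 to 4 lower, and other Ras family genes from 5 to 7 higher and from 1 to 2 lower. With total counts in place of TMM, the lower counts were 1 for GAPs, 3 for effectors and 1 for Rab. With at least 50 counts in 3 libraries they were 1 for exchange factors and 1 for other Ras family genes, with fewer genes tested. Elsewhere the cause was not tested. Of 47 single genes, none changed direction under any alternative.

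Replicate numbers are shared by the groups, but same-numbered libraries did not deviate together (correlations of -0.02, -0.33 and -0.18) and no library correlated best with its own number. With the replicate block, 2772 genes were higher and 2636 lower, the GTPases again had 5 higher and 1 lower, and 1 Rab gene was lower. The paralog differences were again 0.81 and 0.24, which a block cannot change when every replicate number occurs in both groups.

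With 13473820 to 18633764 reads per library and 3 libraries per group, the change of RRAS2 (0.19, SE 0.14) was not called. It was close to the median SE of 0.18 over all tested genes. The smallest change that could be called was not determined. Among the named regulators and effectors, RALGAPA2 (SE 0.40), whose CD libraries were spread out, and RASGRP1 (SE 0.39), which had few reads, had the widest errors. With other scalings in edgeR, the median of all genes was 0.04 to 0.09. With at least 50 counts, that of other Ras family genes was 0.81.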
